A study of Homo sapiens with 6 samples.

Results

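The 40 genes described here drive or carry out the passage of a cell through the G2 phase and mitosis. They were chosen by gene name and, with 1 exception (CENPE), leave out kinesins, which are motor proteins, and E2 enzymes, which conjugate ubiquitin. All 40 were found among the 58735 genes of the deposited table. They fall into short regulators, such as cyclins and small kinase partners, and long structural proteins of the kinetochore, spindle and chromosome surface.

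RNA was sequenced from T24 cells, an established human bladder cancer line, in 6 libraries. The 3 libraries labelled sgNC carry an empty vector as the negative control, and the 3 labelled sgOTUD1 carry the genotype OTUD1 knockout. OTUD1 is a deubiquitinase, an enzyme that takes ubiquitin off other proteins. All cells were grown in RPMI1640 medium with serum, and no treatment, time point or cell synchronisation is named in the labels. Whether the cells are 1 clone or a pool, and whether the replicates came from separate cultures, is not stated. The spread behind the p-values is that among these 6 libraries and may be technical.

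The depth was even, at 16697370 to 17191933 reads in genes per library. The RNA of OTUD1 did not fall with the knockout label. It was at 13.9, 15.6 and 14.6 FPKM (fragments per kilobase of exon, scaled by 1 factor per library) in the libraries labelled sgNC and at 16.2, 17.9 and 17.1 FPKM in those labelled sgOTUD1. The log2 fold change was 0.20 (SE 0.0544), with an adjusted p of 0.0167 by limma, and turned to -0.0625 under a multiplicative correction for exon length. A two-sided exact permutation test gave p = 0.1, the smallest that 3 against 3 allows. The RNA level thus gives no check of the knockout label, and every direction stated here is between libraries so labelled. Though depth was even, the FPKM scale differed between the groups. A read on 1 kilobase counted as 0.0556 to 0.0572 FPKM in libraries labelled sgNC and 0.0600 to 0.0616 in those labelled sgOTUD1. Over all genes, FPKM summed to 265707 to 270416 and to 292861 to 299871. Fold changes in FPKM include this difference, whereas TPM brings all libraries to the same sum. The share of reads on mitochondrial genes was 4.01% ± 0.179 (SD, n = 3) in the libraries labelled sgNC and 2.15% ± 0.0768 (SD, n = 3) in those labelled sgOTUD1, and its part in the results was not tested. Of the epithelial markers, KRT5 was at 1159 to 1532 FPKM and KRT14 at 667 to 964 FPKM. The summed FPKM of the 5 epithelial markers was 2064 to 2194 in the libraries labelled sgNC and 2619 to 2752 in those labelled sgOTUD1. Of the 5, 4 were higher and CDH1 was lower, from 69.1 to 48.2 FPKM (log2 fold change -0.51, adjusted p = 2.41e-05). For fibroblast markers the sums were 9.50 to 10.09 and 7.12 to 7.32 FPKM, with 2 of 7 markers above the filter for testing and COL3A1, LUM and PDGFRB at 0 in every library. For endothelial markers they were 2.57 to 2.75 and 0.752 to 0.902 FPKM, with 1 of 5 above the filter and KDR at 0. For leukocyte markers they were 1.23 to 1.37 and 0.630 to 0.769 FPKM, with 1 of 6 above the filter and PTPRC at 0.

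A cell enters mitosis when the kinase CDK1, bound to a B-type cyclin, becomes active. Other kinases then build the spindle, and a checkpoint holds the sister chromatids together until every kinetochore is attached. The anaphase-promoting complex then marks securin and cyclin B for destruction, separase cuts cohesin, and the cell divides. Many of these genes are transcribed together late in the cycle under the MuvB and B-MYB complex and FOXM1. Their promoters often carry a cell cycle genes homology region, or CHR, and CCAAT boxes bound by NF-Y. In bulk RNA, fewer cells in G2 or mitosis and less of a transcript per such cell cannot be told apart.

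The letters of both elements were common in the promoters of these genes, though not present in all. RefSeq (GRCh38.p14) windows from 250 bases before to 50 bases after the start were given for 34 of the 40 genes, 44 windows in all. FOXM1, BUB3, AURKA, TTK, TPX2 and BIRC5 had none. A CHR was searched as TTTGAA or TTCGAA on both strands, which also reads TTCAAA, and a CCAAT box as CCAAT or ATTGG. A CHR stood in 31 windows (70.5%), against 16.4% of all 35116 windows and 11.4% of the 13156 windows of the protein-coding genes tested. A CCAAT box stood in 34 windows (77.3%), against 34.6% and 34.7%. Both stood in 59.1% of the windows of these genes, against 6.38% and 4.67%. By gene, a CHR was found for 4 of 8 members that were higher in the libraries labelled sgOTUD1, for 17 of 19 that were lower, and for 6 of 6 that did not pass the test. CCAAT boxes were found for 8 of 8, 15 of 19 and 5 of 6. Of the 44 CHR matches, 21 began within 50 bases before the start.

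The 100 bases upstream of the start are shown for 5 genes that were lower (HMMR, MKI67, CENPA, ESPL1, INCENP), 2 that were higher (CKS1B, CKS2) and 1 that did not pass the test (CCNB2). They are examples, from each outcome, of genes with a CHR. No CHR was found for AURKB, CCNA2, NEK2 and PTTG1, which were higher, or for CCNB1 and CENPE, which were lower. Each stretch is read 5′ to 3′ on the strand of the gene, and capitals mark CHR and CCAAT letters. In HMMR a CCAAT and an ATTGG overlap, in MKI67 a TTTGAA and an ATTGG overlap, and in CENPA no CCAAT box stood in the stretch shown. The positions are chr5:163460532-163460631 (plus strand) for HMMR, chr10:128126424-128126523 (minus strand) for MKI67, chr2:26785956-26786055 (plus strand) for CENPA and chr12:53268199-53268298 (plus strand) for ESPL1. They are chr11:62123911-62124010 for INCENP, chr1:154974581-154974680 for CKS1B, chr9:89311095-89311194 for CKS2 and chr15:59105046-59105145 for CCNB2, all on the plus strand.
HMMR: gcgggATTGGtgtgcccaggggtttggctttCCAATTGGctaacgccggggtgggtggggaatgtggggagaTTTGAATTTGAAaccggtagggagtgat
MKI67: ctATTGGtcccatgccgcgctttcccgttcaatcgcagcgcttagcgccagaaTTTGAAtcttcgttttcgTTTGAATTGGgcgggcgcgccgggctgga
CENPA: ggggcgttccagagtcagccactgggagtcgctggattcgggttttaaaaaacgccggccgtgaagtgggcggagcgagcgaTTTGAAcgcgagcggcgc
ESPL1: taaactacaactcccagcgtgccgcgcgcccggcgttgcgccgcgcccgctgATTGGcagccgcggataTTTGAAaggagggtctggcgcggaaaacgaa
INCENP: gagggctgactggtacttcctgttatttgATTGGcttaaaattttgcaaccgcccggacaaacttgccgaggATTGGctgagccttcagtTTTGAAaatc
CKS1B: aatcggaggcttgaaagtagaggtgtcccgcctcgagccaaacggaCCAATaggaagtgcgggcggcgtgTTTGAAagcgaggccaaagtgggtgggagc
CKS2: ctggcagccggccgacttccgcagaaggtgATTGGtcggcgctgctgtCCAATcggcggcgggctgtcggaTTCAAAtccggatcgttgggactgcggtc
CCNB2: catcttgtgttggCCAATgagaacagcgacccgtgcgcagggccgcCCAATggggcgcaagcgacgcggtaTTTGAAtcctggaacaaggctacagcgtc

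Of the 39 members with a mean of at least 0.5 FPKM, 10 were higher and 23 were lower in the libraries labelled sgOTUD1, and 6 did not pass the test. Calls were made by limma on log2(FPKM + 1) at a Benjamini-Hochberg adjusted p under 0.05 over all 14658 genes tested. In the same test 31.2% of all genes were higher and 24.7% were lower, against 25.6% and 59.0% of the members. The median log2 fold change was -0.28 over the members and 0.03 over all genes tested. On the log2(FPKM + 1) scale, 1 member was called and lower by more than 2-fold (ASPM), against 0.866% of all genes, and 0 were called and higher by more than 2-fold, against 2.01%. In FPKM itself the sgOTUD1 mean of HMMR was also under that mark, at 49.6% of the sgNC mean, and under TPM HMMR (-1.13) and MKI67 (-1.01) passed it too. For 33 of the 39, 10 higher and 23 lower, the groups did not overlap, against 64.0% of all genes, 34.9% higher and 29.1% lower. The median coefficient of variation over the 3 libraries was 3.51% in the sgNC group and 3.93% in the sgOTUD1 group.

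**Figure D1:**
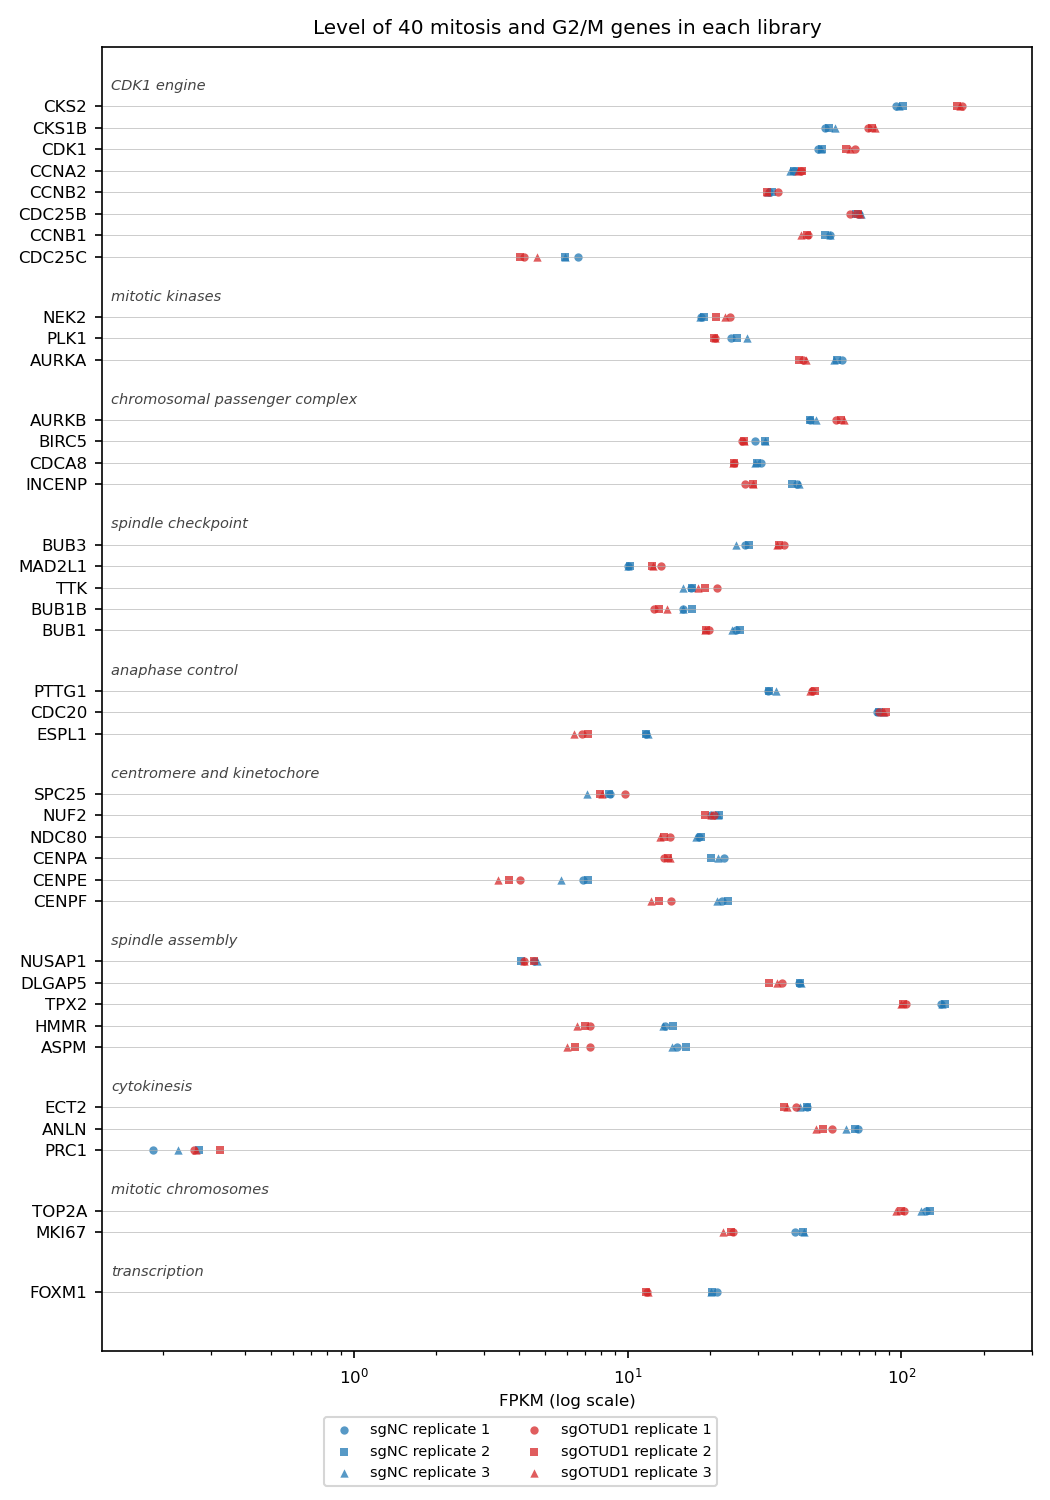
Level of each of the 40 genes in FPKM (log axis) in each library, ordered by role, with sgNC libraries in blue and sgOTUD1 libraries in red and 1 symbol per replicate number. Red lies to the left of blue for 23 of the 39 tested genes, including all 3 libraries of ASPM, HMMR and FOXM1, and to the right for 10, including CKS2 and CKS1B.

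**Figure D2:**
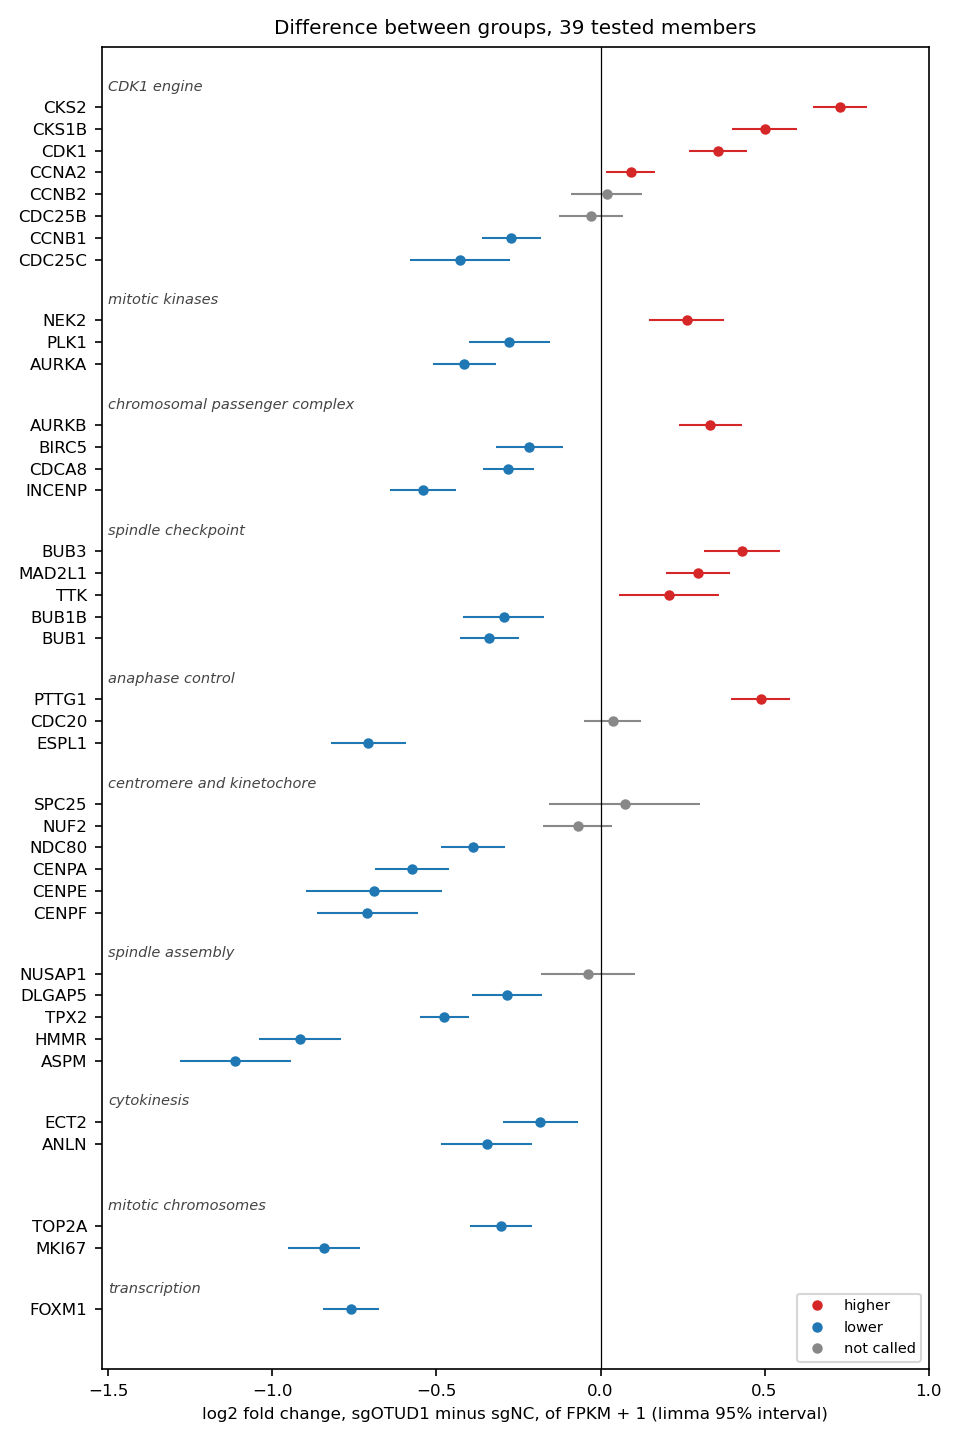
Log2 fold change of FPKM + 1, sgOTUD1 minus sgNC, of the 39 tested genes with limma's 95% interval. Red marks the 10 genes called higher, blue the 23 called lower and grey the 6 that did not pass the test, and the range runs from -1.11 for ASPM to 0.73 for CKS2.

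Among the 8 genes around CDK1, 4 were higher, 2 were lower and 2 did not pass the test, with a median log2 fold change of 0.06. CKS2 (chr9:89311198-89316703), a small protein that docks the kinase onto its substrates, was at 95.7, 101 and 97.7 FPKM in the libraries labelled sgNC and at 167, 159.5 and 164 FPKM in those labelled sgOTUD1. The groups stood far apart, with every library labelled sgOTUD1 above every library labelled sgNC. The log2 fold change was 0.73 (SE 0.0346, adjusted p = 9.63e-06). This was the largest increase among the 39 on the FPKM scale, whereas with either exon length correction that of BUB3 was larger. CKS1B, its close relative, which also helps the SCF ligase recognise p27, was higher by 0.50 (SE 0.0416, adjusted p = 7.92e-05), from 54.8 ± 2.41 to 77.95 ± 2.05 FPKM (SD, n = 3). CDK1 itself was higher by 0.36 (SE 0.0375, adjusted p = 0.000218), from 50.5 ± 0.999 to 65.1 ± 2.37 FPKM.

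Of the 3 cyclins, 1 was lower, 1 was higher by a small amount and 1 did not pass the test. CCNB1, the cyclin that brings CDK1 to the nucleus at mitotic entry, fell by 0.27 on the log2 scale (adjusted p = 0.000805), from 54.1 ± 1.22 to 44.7 ± 1.51 FPKM. CCNB2, the other B-type cyclin, was at 32.9 ± 0.569 and 33.4 ± 1.84 FPKM, with a 95% interval of the log2 difference of -0.09 to 0.13. It was called lower with the exon length correction (-0.17, adjusted p = 0.0289) and the multiplicative one (-0.27, adjusted p = 0.00517). CCNA2, which acts in S phase and G2, was higher by 0.092 (adjusted p = 0.0421), a call that was lost when any 1 library was left out. Its mean reads were 1989 in the sgNC group and 1965 in the sgOTUD1 group. The sign of CCNA2 turned under TPM (-0.0577), median-ratio rescaling (-0.0439) and both exon length corrections (-0.10 and -0.20). With the multiplicative correction it was called lower (adjusted p = 0.00421). CDC25C, a phosphatase that activates CDK1, was at 6.59, 5.91 and 5.89 FPKM in the libraries labelled sgNC and at 4.17, 4.06 and 4.67 FPKM in those labelled sgOTUD1. Its 3 sgOTUD1 values all lay under the lowest sgNC value, with a log2 fold change of -0.43 (SE 0.0649, adjusted p = 0.00124). CDC25B, the related phosphatase that acts earlier, was at 69.7 ± 1.38 and 68.4 ± 3.12 FPKM, with an interval of -0.13 to 0.07. It was called lower under TPM (-0.18, adjusted p = 0.00497), median-ratio rescaling (-0.17, adjusted p = 0.00864) and the multiplicative length correction (-0.18, adjusted p = 0.00578).

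Of the 3 other mitotic kinases, 2 were lower and 1 was higher. AURKA, which matures centrosomes and the spindle poles, was at 60.8, 57.99 and 56.6 FPKM in the libraries labelled sgNC and at 43.8, 42.1 and 44.8 FPKM in those labelled sgOTUD1. The lowest sgNC library was above the highest sgOTUD1 library by a wide margin, and the log2 fold change was -0.42 (SE 0.0406, adjusted p = 0.000161). PLK1, a kinase needed from mitotic entry to cytokinesis, fell from 25.5 ± 1.797 to 20.8 ± 0.121 FPKM (log2 fold change -0.28, adjusted p = 0.00351). NEK2, a centrosome kinase that helps the centrosomes separate, was at 18.5, 18.96 and 18.3 FPKM and at 23.7, 21.1 and 22.7 FPKM. All 3 sgOTUD1 libraries were higher, by 0.26 on the log2 scale (SE 0.0484, adjusted p = 0.00317), but the call was lost under TPM (adjusted p = 0.127), median-ratio rescaling (adjusted p = 0.064) and the exon length corrections, which gave 0.0945 (adjusted p = 0.179) and 0.0098 (adjusted p = 0.895).

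The 4 genes of the chromosomal passenger complex, which corrects wrong kinetochore attachments, split between the kinase and its partners. AURKB, the kinase, was at 46.2, 46.3 and 48.9 FPKM in the libraries labelled sgNC and at 57.6, 59.96 and 61.6 FPKM in those labelled sgOTUD1. INCENP, the scaffold that binds and activates it, was at 41.5, 39.8 and 42.4 FPKM and at 26.8, 28.7 and 28.6 FPKM. Neither gene's groups overlapped, and the directions were opposite. The log2 fold change was 0.33 for AURKB (SE 0.0402, adjusted p = 0.00042), turning to -0.0106 under the multiplicative length correction, and -0.54 for INCENP (SE 0.0426, adjusted p = 6.3e-05). CDCA8 (borealin) and BIRC5 (survivin), which place the complex at the centromere, were lower by smaller amounts, with log2 fold changes of -0.28 (adjusted p = 0.000374) and -0.22 (adjusted p = 0.00454).

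In the spindle checkpoint, 3 genes were higher and 2 were lower. BUB3, a WD-repeat protein that carries BUB1 and BUBR1 to kinetochores, was at 26.9, 27.8 and 24.9 FPKM in the libraries labelled sgNC and at 37.4, 35.7 and 35.04 FPKM in those labelled sgOTUD1, with no overlap. BUB1, a checkpoint kinase, was at 24.8, 25.8 and 24.03 FPKM and at 19.8, 19.4 and 19.2 FPKM, also with no overlap. The log2 fold change was 0.43 for BUB3 (SE 0.0494, adjusted p = 0.00034) and -0.34 for BUB1 (SE 0.0383, adjusted p = 0.000315). MAD2L1 (MAD2), the protein that holds CDC20 inactive, rose from 10.1 ± 0.125 to 12.6 ± 0.495 FPKM (log2 fold change 0.30, adjusted p = 0.000827), whereas BUB1B (BUBR1), its partner in the inhibitor, fell from 16.4 ± 0.7399 to 13.2 ± 0.719 FPKM (-0.30, adjusted p = 0.00266). TTK (MPS1), the kinase at the top of the checkpoint, was higher by 0.21 (SE 0.0639, adjusted p = 0.0277). The call was lost in 4 of the 6 fits that left out 1 library and with no filter (adjusted p = 0.071). It was also lost under TPM (adjusted p = 0.506), median-ratio rescaling (adjusted p = 0.364) and the exon length corrections (adjusted p = 0.0911 and 0.34). Limma-voom (adjusted p = 0.00933) and the coding length correction (adjusted p = 0.00049) kept it.

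Of the 3 genes that control anaphase, 1 was higher, 1 was lower and 1 did not pass the test. PTTG1 (chr5:160421822-160428744), securin, which blocks separase until anaphase, was at 32.7, 32.8 and 34.7 FPKM in the libraries labelled sgNC and at 47.2, 48.3 and 46.3 FPKM in those labelled sgOTUD1. ESPL1 (chr12:53268299-53293643), separase itself, was at 11.6, 11.6 and 11.8 FPKM and at 6.82, 7.15 and 6.36 FPKM. The inhibitor was higher in all 3 libraries labelled sgOTUD1 and the enzyme was lower in all 3, with log2 fold changes of 0.49 (SE 0.0377, adjusted p = 5.77e-05) and -0.71 (SE 0.0482, adjusted p = 3.54e-05). CDC20, the activator of the anaphase-promoting complex, was at 81.3, 82.96 and 85.7 FPKM and at 82.7, 87.8 and 86.1 FPKM. Its groups overlapped, and the log2 difference was 0.038 with an interval of -0.05 to 0.12. CDC20 was called lower under TPM (-0.11, adjusted p = 0.0175) and median-ratio rescaling (-0.10, adjusted p = 0.0334). It was also called lower with the exon length correction (-0.21, adjusted p = 0.000724) and the multiplicative one (-0.33, adjusted p = 8.59e-05). Limma-voom (-0.0006) and the coding length correction (0.005) gave no call.

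Of the 6 centromere and kinetochore genes, 4 were lower and 2 did not pass the test. CENPF (chr1:214603195-214664588), a long coiled-coil protein of the outer kinetochore, was at 22.1, 23.3 and 21.3 FPKM in the libraries labelled sgNC and at 14.4, 13.1 and 12.2 FPKM in those labelled sgOTUD1. All 3 sgOTUD1 libraries were well under the sgNC range (log2 fold change -0.71, SE 0.0646, adjusted p = 0.000117). CENPE, a motor protein of the kinetochore that brings chromosomes to the spindle equator, fell by 0.69 (adjusted p = 0.000555), and CENPA, the histone H3 variant that marks the centromere, fell by 0.57 (adjusted p = 7.66e-05). NDC80, the microtubule-binding subunit of the complex of that name, fell from 18.2 ± 0.383 to 13.7 ± 0.548 FPKM (-0.39, adjusted p = 0.000244). NUF2, which forms a dimer with NDC80, was at 20.2, 21.6 and 21.3 FPKM and at 20.7, 19.1 and 20.2 FPKM. Its groups overlapped, with an interval of -0.18 to 0.04. NUF2 was called lower under TPM (-0.22), median-ratio rescaling (-0.20), the 2 exon length corrections (-0.22 and -0.30) and the coding length correction (-0.12), with adjusted p of 0.00165 to 0.0431. SPC25, a subunit at the other end of the same complex, had overlapping groups too, with an interval of -0.16 to 0.30.

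Spindle assembly factors held the largest decreases, with 4 of 5 lower. ASPM (chr1:197084128-197146694), which organises spindle poles, was at 15.2, 16.3 and 14.6 FPKM in the libraries labelled sgNC and at 7.26, 6.43 and 5.999 FPKM in those labelled sgOTUD1. The sgOTUD1 mean was 42.8% of the sgNC mean, with a log2 fold change of -1.11 (SE 0.0715, adjusted p = 2.77e-05). HMMR (chr5:163460203-163491945), a microtubule-binding protein of spindle poles, was at 13.7, 14.6 and 13.5 FPKM and at 7.29, 6.98 and 6.51 FPKM. Its groups did not overlap either, with a log2 fold change of -0.92 (SE 0.0528, adjusted p = 1.83e-05). TPX2, which binds and activates AURKA on microtubules and had the highest FPKM of the members in the libraries labelled sgNC, was at 139, 144 and 141 FPKM and at 104, 101 and 99.5 FPKM. None of its libraries overlapped (-0.48, SE 0.0314, adjusted p = 3.09e-05). DLGAP5 (HURP), which stabilises microtubules near chromosomes, fell by 0.29 (adjusted p = 0.0015).

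Both tested cytokinesis genes were lower. ANLN (anillin), a scaffold of the contractile ring, was at 69.1, 67.6 and 62.7 FPKM in the libraries labelled sgNC and at 55.7, 51.7 and 48.7 FPKM in those labelled sgOTUD1. All sgOTUD1 values lay under the sgNC values (-0.35, SE 0.0591, adjusted p = 0.00218). ECT2, the exchange factor that activates RHOA at the division plane, fell by 0.18 (adjusted p = 0.0149), a call lost in 3 of the 6 fits that left out 1 library (adjusted p up to 0.0528).

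The 2 genes of mitotic chromosomes and the transcription factor were lower as well. MKI67 (chr10:128096659-128126385), the Ki-67 protein that coats chromosomes and is widely used as a proliferation marker, was at 41.04, 43.6 and 44.3 FPKM in the libraries labelled sgNC and at 24.3, 23.9 and 22.4 FPKM in those labelled sgOTUD1. TOP2A, the topoisomerase that untangles sister chromatids, was at 123, 127 and 118 FPKM and at 102, 99.7 and 95.8 FPKM. Both fell without overlap, by 0.84 (SE 0.0464, adjusted p = 1.6e-05) and 0.30 (SE 0.0403, adjusted p = 0.000672) on the log2 scale. FOXM1 (chr12:2857681-2877155), a transcription factor that activates many G2/M genes, was at 21.2, 20.4 and 20.2 FPKM and at 11.7, 11.7 and 11.9 FPKM. The sgOTUD1 libraries were almost alike and stood at 57.03% of the sgNC mean, with a log2 fold change of -0.76 (SE 0.0357, adjusted p = 9.37e-06).

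For PRC1 and NUSAP1 the level itself is uncertain. PRC1, which bundles the central spindle, was at 0.184 to 0.323 FPKM in the 6 libraries, a mean of 22.3 and 25.7 reads per group, and was not tested. In GENCODE 29, 57.6% of its exon bases are shared on the same strand with AC068831.7, itself at 0.458 to 0.779 FPKM. NUSAP1, which bundles spindle microtubules, was at 4.44 ± 0.313 and 4.296 ± 0.213 FPKM and did not pass the main test. It was called lower with the exon length correction (-0.22, adjusted p = 0.0127) and the multiplicative one (-0.27, adjusted p = 0.00599). Of its exon bases, 62.2% are shared with AC087721.2, which was listed at 0. The sources used here do not say how reads in shared exons were assigned, and its part in these levels was not tested. Of the 40 genes, 12 share some exon bases with another gene. CENPA shares 6.96% with SLC35F6 on the same strand. SLC35F6 was at 11.8, 9.41 and 10.7 FPKM in the libraries labelled sgNC and at 6.16, 5.79 and 6.65 FPKM in those labelled sgOTUD1. The part of this overlap in the CENPA values was not tested. On the opposite strand, PLK1 shares 11.6% with AC008870.3, CCNA2 9.08% with EXOSC9 and CDC25C 8.78% with FAM53C. BUB1B shares 10.2% of its exon bases with BUB1B-PAK6, and FOXM1 15.9% with ITFG2 on the opposite strand, where the strand setting is not given either. CKS1B has near-identical processed pseudogenes, of which CKS1BP3 was at 9.75 FPKM in the libraries labelled sgNC and 14.4 FPKM in those labelled sgOTUD1, so its reads may be split. PTTG3P and BUB3P1 were listed at 0 in every library.

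By coding length, long members were mostly lower and short members more often higher, and tested genes at large were split the same way. Split at the members' median longest coding sequence, 1618.5 nt, the 19 tested long members held 1 higher and 17 lower (median log2 fold change -0.39), and the 20 short members held 9 higher and 6 lower (median 0.06). Among tested protein-coding genes on the same side of that length, 16.1% of 4681 long genes were higher and 43.8% lower (median -0.13), and 47.2% of 6704 short genes were higher and 16.2% lower (median 0.16). Split by the union of exons at 3873 nt, both sides held more lower than higher members: long members held 4 higher and 14 lower (median -0.34) and short members 6 higher and 9 lower (median -0.053), against 25.9% and 34.3% of 7477 long genes and 50.9% and 14.6% of 3908 short genes. Spearman's rho of the fold change with coding length was -0.70 across the 39 members and -0.48 across 11385 genes, with exon length -0.51 and -0.37, with mean FPKM 0.39 and 0.33, and with transcript GC content -0.01 and -0.07. These are descriptions across genes that share the same 6 libraries. In every library labelled sgNC the deviation of a gene from its mean over the 6 libraries rose with exon length, by 0.0558 to 0.0897 log2 units per doubling, and in every library labelled sgOTUD1 the slope was negative, at -0.0595 to -0.0859. The part of this length trend in the members' fold changes cannot be told apart from the group by these libraries alone.

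Members were also set beside genes of similar length. For coding sequences of up to 1000 nt the median log2 fold change was 0.33 over 10 members and 0.25 over 3540 genes. Between 1000 and 2000 nt it was -0.04 over 13 members and 0.04 over 4416 genes, and between 2000 and 4000 nt it was -0.34 over 10 members and -0.12 over 2610 genes. Above 8000 nt (ASPM, MKI67, CENPF and CENPE) it was -0.78 over 4 members and -0.51 over 125 genes. CENPA, BIRC5 and CDCA8, each with a coding sequence under 1000 nt, were lower although the median gene of that length was higher. TTK was higher although it encodes 857 residues, by a call that several scalings lost.

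**Figure D3:**
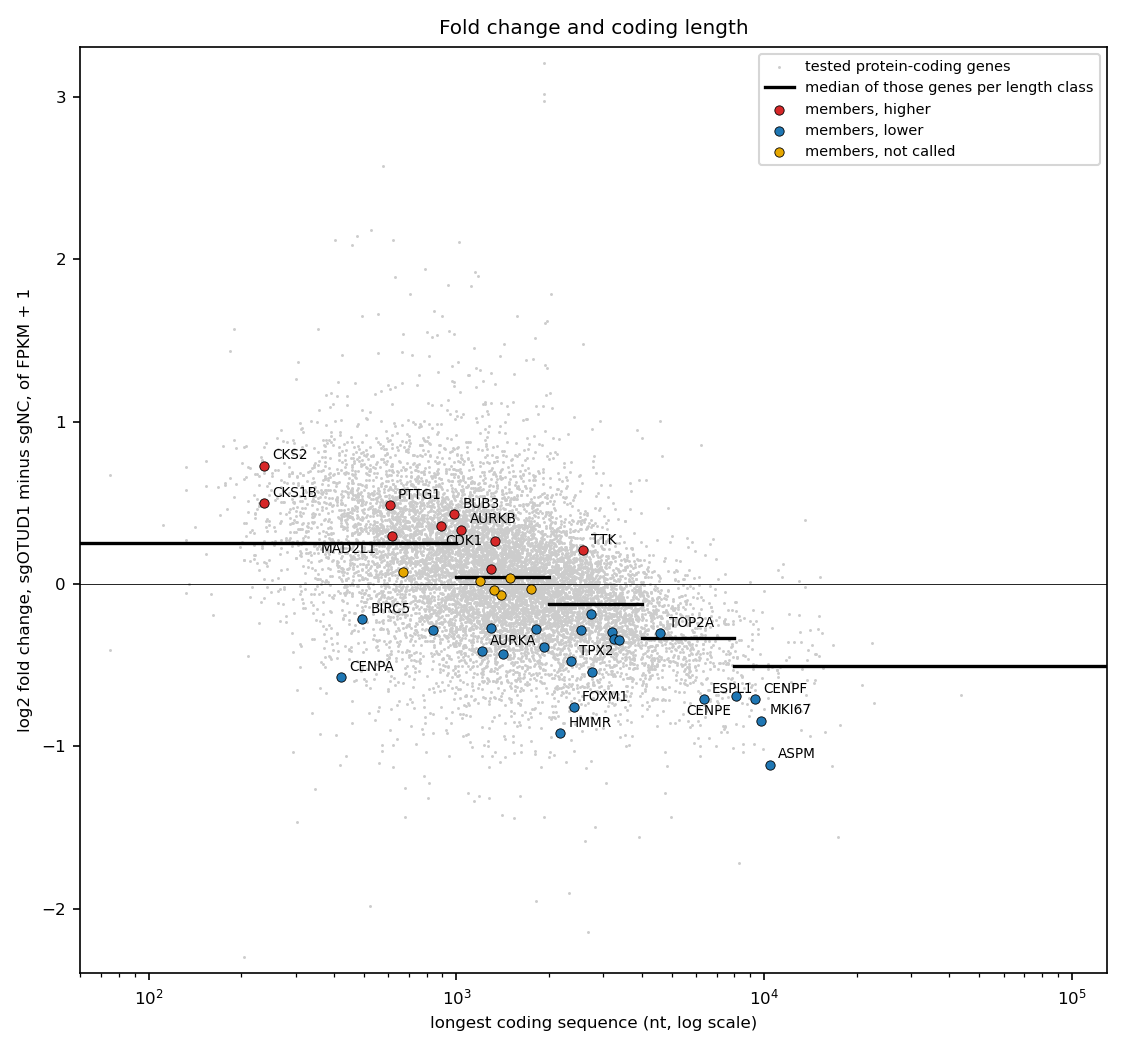
Log2 fold change of FPKM + 1, sgOTUD1 minus sgNC, against the longest coding sequence in nt (log axis), with tested protein-coding genes in grey, their median per length class as black lines, and members called higher (red), lower (blue) or neither (orange). The grey medians step down from 0.25 to -0.51 with length, CKS2 and CKS1B lie at the upper left, ASPM and MKI67 at the lower right, and CENPA lies at -0.57 among short genes.

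Calls were compared over 7 scalings and corrections: FPKM, TPM, median-ratio rescaling, 2 corrections for exon length, a correction for coding length chosen after seeing the data, and limma-voom on the reads recovered from FPKM. All 7 called 5 members higher (CKS2, CKS1B, CDK1, PTTG1 and BUB3) and 20 lower, among them FOXM1, ASPM, HMMR, MKI67, CENPA, ESPL1, INCENP, AURKA and TPX2. The share of all genes tested with the same call in all 7 was not counted. These 2 counts thus do not show a trait particular to the members. The 5 higher members kept their direction with smaller values in several of the 7 settings. With the exon length, multiplicative and coding length corrections in that order, CKS2 was at 0.45, 0.20 and 0.33, CKS1B at 0.28, 0.16 and 0.10, PTTG1 at 0.24, 0.12 and 0.24, and CDK1 at 0.25, 0.17 and 0.19. BUB3 was at 0.53, 0.50 and 0.29. The exon length correction gave 7 higher and 27 lower, against 26.3% and 28.0% of genes, and the multiplicative one 6 and 29, against 21.4% and 31.8%. Limma-voom gave 9 and 23, against 30.2% and 29.7%. With coding length corrected, 8 were higher and 21 were lower, against 31.2% and 29.8%. CENPA was then at -0.89, HMMR at -0.85, FOXM1 at -0.66 and ASPM at -0.60, MKI67 at -0.35, CENPE at -0.25 and CENPF at -0.23. TOP2A, BUB1B, ECT2 and MAD2L1 no longer passed (adjusted p = 0.568, 0.0742, 0.354 and 0.381). The median over all genes tested was 0.03 for FPKM, -0.13 for TPM, where 19388 genes passed the filter in place of 14658, and -0.075 for median-ratio rescaling, where 14670 did. The members then held 7 higher and 26 lower in each, against 16.2% and 27.8% of genes under TPM and 22.3% and 34.0% under median-ratio rescaling.

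**Figure D4:**
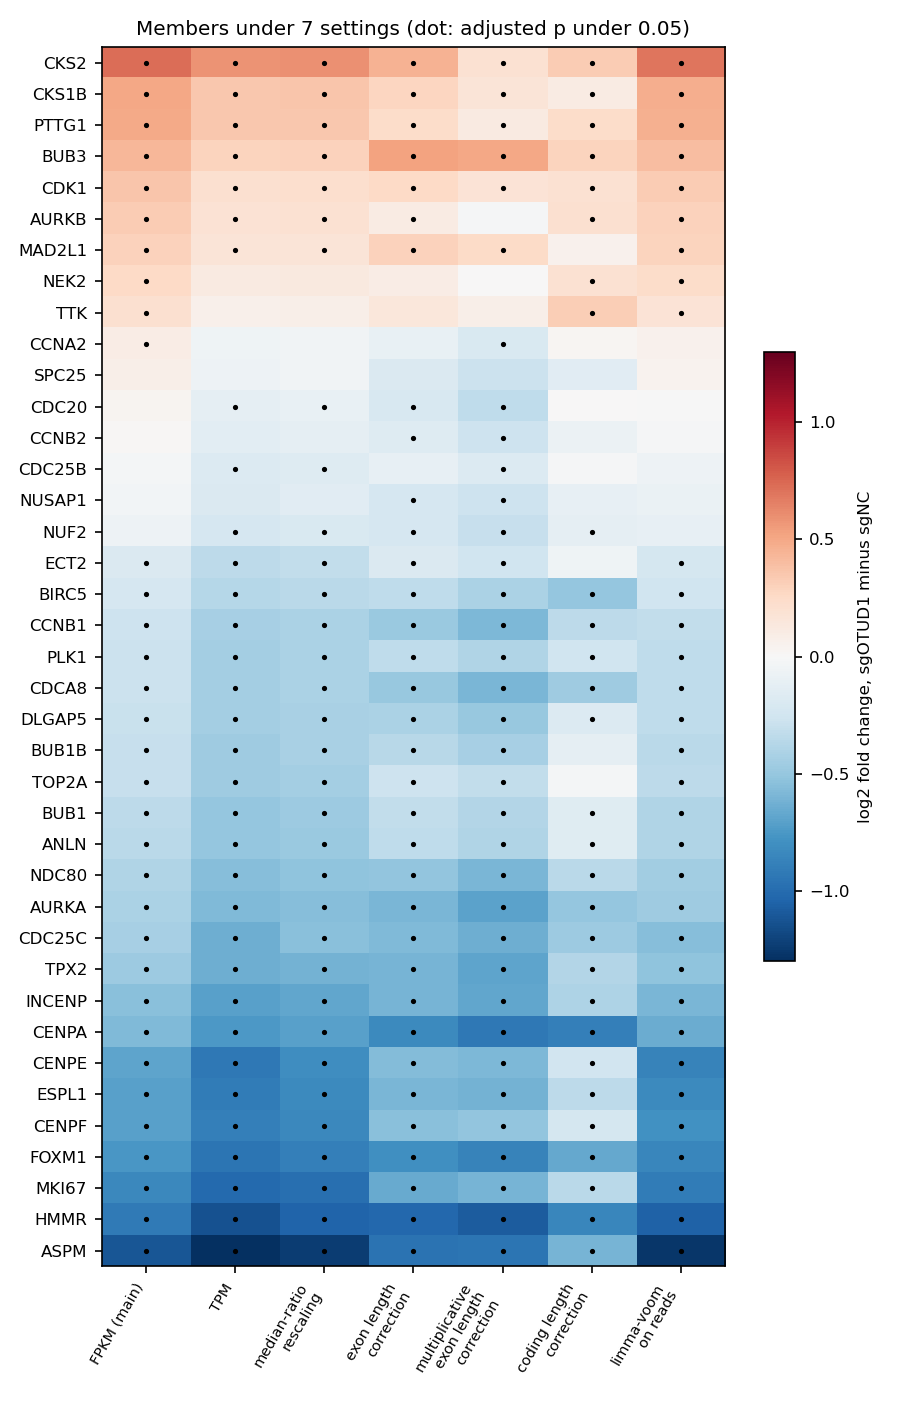
Log2 fold change, sgOTUD1 minus sgNC, of the 39 tested genes (rows, ordered by the main value) under 7 scalings and corrections (columns), as colour, with a dot where the adjusted p was under 0.05. The 5 genes CKS2, CKS1B, PTTG1, BUB3 and CDK1 are red with a dot in all 7 columns, and the coding length column is paler for long genes such as CENPF (-0.23).

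Ratios between genes whose proteins work together do not depend on library scaling, since both values come from the same library. The 9 pairs were chosen after the values were seen, and several join a member called higher to one called lower, so the ratios are a description with no test. PTTG1 over ESPL1, the inhibitor over its protease, moved most, from 2.86 ± 0.0701 to 6.98 ± 0.267 (SD, n = 3). AURKB over INCENP went from 1.14 ± 0.0262 to 2.13 ± 0.0357, and BUB3 over BUB1 from 1.06 ± 0.0254 to 1.85 ± 0.0342. CDK1 over CCNB1 went from 0.935 ± 0.03704 to 1.46 ± 0.0599, and MAD2L1 over BUB1B from 0.616 ± 0.0198 to 0.961 ± 0.0831. CCNB1 over CCNB2, cyclins of 433 and 398 residues, went from 1.64 ± 0.0639 to 1.34 ± 0.0551. CKS2 over CDK1 went from 1.94 ± 0.02402 to 2.51 ± 0.042997 and NUF2 over NDC80 from 1.16 ± 0.0485 to 1.46 ± 0.0672. AURKA over its activator TPX2 was 0.413 ± 0.0202 and 0.429 ± 0.0187, with overlapping groups. In all 9 pairs the mean ratio of the shorter to the longer protein was higher in the libraries labelled sgOTUD1, though for AURKA and TPX2 the groups overlapped. With pairs picked after the values were seen, this count says nothing of other pairs.

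**Figure D5:**
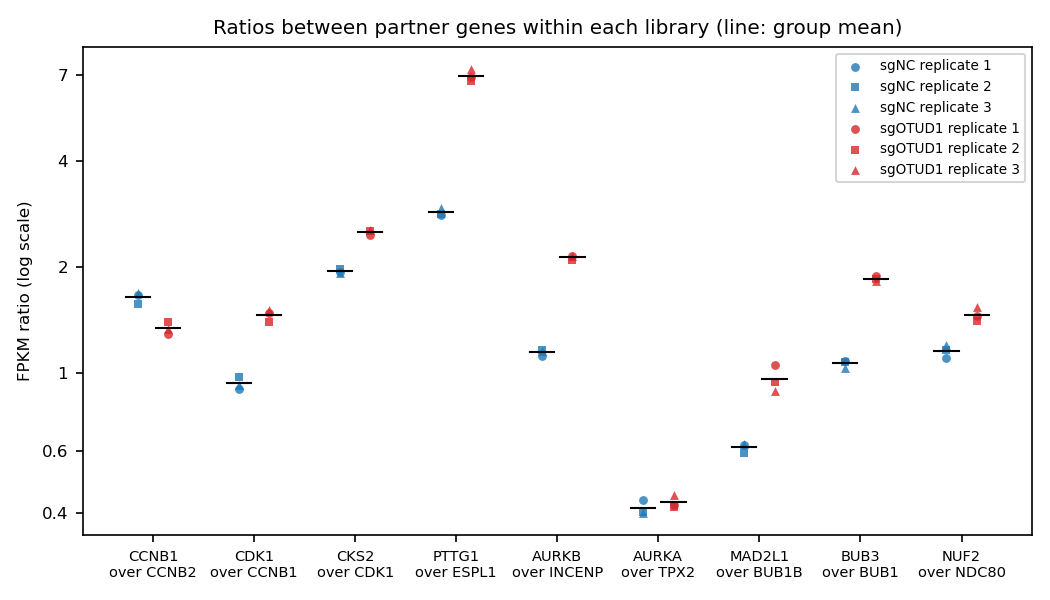
Ratio of FPKM between 9 pairs of partner genes within each library (log axis), with 1 symbol per replicate, sgNC in blue, sgOTUD1 in red and the group mean as a line. PTTG1 over ESPL1 stands at 2.86 and 6.98, and AURKA over TPX2 is the pair whose groups overlap, at 0.413 and 0.429.

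Genes of the same pathways outside the 40 gave 22 higher, 44 lower and 46 that did not pass, of 112 tested in 7 lists, with a median log2 fold change of -0.089. These counts and those of each list stand beside 31.2% higher and 24.7% lower among all genes tested. Condensin and cohesin, the ring complexes that shape and tie chromatids, held 0 higher and 12 lower of 19 (median -0.27), with 7 that did not pass. NCAPD2, a condensin subunit, went from 61.3 to 42.7 FPKM (-0.51, adjusted p = 2.35e-05), and SMC1A, a cohesin subunit, from 21.8 to 13.3 FPKM (-0.67, adjusted p = 5.16e-05). Spindle and centrosome genes held 1 higher and 12 lower of 22 (median -0.21), with PCNT, a centrosome scaffold, at -0.77 and HAUS1, an augmin subunit, at 0.16, a value that turned to -0.07 with exon length corrected. Other kinetochore genes were close to those shares, with 10 higher and 7 lower of 29 (median 0.04): CENPW, a small histone-fold protein, was at 0.69 (0.40 and 0.19 with the exon length corrections) and KNL1, the long scaffold that binds BUB1, at -0.72. The anaphase-promoting complex held 7 higher and 4 lower of 16 (median 0.07), with the small catalytic subunit ANAPC11 at 0.68 (adjusted p = 0.000293) and the subunit CDC27 at -0.67 (adjusted p = 0.000106). The MuvB, B-MYB and DREAM genes, which switch G2/M transcription on and off, held 1 higher and 3 lower of 9 (median -0.02), with RBBP4 at 0.37 and RBL1 at -0.42. Regulators of mitotic entry held 1 higher and 2 lower of 9 (median -0.15), with GTSE1, which restrains p53 in G2, at -0.85 (adjusted p = 3.95e-05). Abscission and cytokinesis genes held 2 higher and 4 lower of 8 (median -0.12), with RHOA, the switch that ECT2 activates, at 0.36 (0.15 and 0.044 with the exon length corrections) and CIT, the citron kinase, at -0.67.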

How the data were processed

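RNA-seq libraries were made from total RNA with an NEBNext Ultra kit, per the labels' protocols. The deposited values are FPKM per gene and library, per the file headers. Per the submitters' processing notes, the build was hg38 and the tools included DESeq2 1.20.0 and featureCounts 1.5.0-p3. The sources used here do not give the aligner or the strand setting. Multiplied by GENCODE 29 exon length, 100% of non-zero FPKM values were whole reads on 1 scale per library (tolerance 0.001 reads).

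Groups came from the sample titles. Groups were compared by limma 3.58.1 (R 4.3.3) on log2(FPKM + 1), with robust and trend options. It was two-sided and compared the groups with no other term. All genes whose mean FPKM reached 0.5 were tested and adjusted together by Benjamini-Hochberg. The offset of 1 understates the change of low genes. Gene coordinates and lengths are those of GENCODE 29 on hg38. Exon length corrections fitted a spline with 4 degrees of freedom to log2 exon length in each library. The spline was subtracted from the log2 values, or taken out of FPKM as a factor ahead of the offset (multiplicative). The fitted level of each library was taken out with the spline, so the corrections also recentre the libraries. The median log2 fold change over all genes tested was then -0.026 and -0.070, against 0.03 in the main fit. Sign changes under these corrections thus mix recentring with the length trend. The coding length correction and the 9 pairs were chosen after seeing the data. Limma-voom on the recovered reads called 4428 genes higher and 4350 lower. The main fit, the 2 exon length corrections and limma-voom were also run on simulated reads. The outcome is not given here, and no result rests on it. Python 3.11.15 was used with SciPy 1.17.1, NumPy 2.4.6 and pandas 2.3.3.

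Members and lists were chosen with earlier results of these data known. In each role group, library values are given for the called members with the largest increase and decrease and for the most abundant member. HMMR and the members given as means were added after their values were seen. In the 7 pathway lists, the genes named are among those with the smallest adjusted p in each direction. Alternatives were a replicate block, leaving out each library, TPM, median-ratio rescaling, an offset of 0.1, an adjusted p under 0.01, no filter, a filter at a mean of 5 FPKM, limma with neither robust nor trend option, the length corrections and limma-voom. Intervals are limma's 95% intervals.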

Additional observations from a re-analysis of the deposited data

How the results depend on the processing

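Over all alternatives, 595 values of single members kept direction and side of the threshold. With the sign kept, 32 lost the call and 10 gained one, and 25 changed sign. Among those that changed sign, CDC20, CCNB2 and CCNA2 were called lower in some alternatives. Unless an alternative's construction shows it, the cause of these changes was not tested. Members called higher numbered 6 with the multiplicative length correction. Leaving out 1 library gave 8 to 9 members higher and 22 to 23 lower, and 4074 to 4308 tested genes higher and 3059 to 3314 lower. Tested genes lower numbered 1757 with a mean FPKM of at least 5, where fewer genes are tested. The long minus short median of members (exon length, main value -0.29; -0.33 to -0.25 leaving out 1 library) was -0.11 with the length correction, -0.0804 with the multiplicative one and -0.0216 with coding length corrected, since these remove the length trend. OTUD1 was at 0.0711 with median-ratio rescaling, 0.0613 with TPM, 0.0215 with the length correction and -0.0625 with the multiplicative one, and at 0.17 to 0.24 leaving out 1 library. Under median-ratio rescaling, TPM, the length correction and the multiplicative one in that order, CCNA2 was at -0.0439, -0.0577, -0.10 and -0.20, CCNB2 at -0.12, -0.13, -0.17 and -0.27, CDC20 at -0.10, -0.11, -0.21 and -0.33, and SPC25 at -0.0503, -0.0672, -0.18 and -0.28. AURKB was at -0.0106 with the multiplicative correction. With coding length corrected, CCNB2 was at -0.0736 and SPC25 at -0.15, and with limma-voom CCNB2 was at -0.0194 and CDC20 at -0.0006. Leaving out 1 library gave -0.0256 to 0.0417 for CCNB2, -0.0519 to 0.0094 for CDC25B and -0.0126 to 0.12 for SPC25, and CCNA2 was at 0.0782 to 0.10 with no call. Deviations from the group means correlated at -0.0513 to 0.00155 between same-numbered libraries and at -0.0664 to 0.0664 between differently numbered ones. With 3 libraries per group, whether same-numbered libraries share a batch cannot be told from these values. With the number as a replicate block, 9 members were higher and 23 lower, without CCNA2, and 4431 genes were higher and 3360 lower. Each group holds 3 libraries, and 0.1 is the smallest exact p.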
